A study of Mus musculus with 2 samples.

Results

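Mir21a, Mir146, Mir146b, Mir155, Mir150 and Mir223 are 6 microRNA (miRNA) genes known from microglia, other immune cells and inflammatory signalling. They were taken by gene name and are 6 of the 2202 miRNA genes in the count tables. Small RNA under 30 nt was sequenced from total RNA of left cerebral cortex, taken from female 5xFAD/CAST adults at 8 to 10 months of age. The 5xFAD transgenes include mutant human APP under neuronal Thy1 promoter elements, and amyloid plaques with surrounding reactive microglia and astrocytes form in such brains. Both libraries, called replicate 1 and replicate 2, are of this 1 group, and mice without the transgenes were not analysed here. The labels give the libraries different tissue samples but 1 donor entry, so it is not known whether they come from separate animals, and every p-value below measures a difference between these 2 libraries that may be technical.

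A miRNA is cut from a hairpin precursor as a duplex of a 5p and a 3p strand, and the strand loaded into Argonaute represses messenger RNAs that pair with its seed. In macrophages and microglia, Toll-like receptors and NF-kB induce transcription of Mir155 and Mir146. miR-155 lowers inhibitors of the response such as Socs1 and Inpp5d, whereas miR-146a and miR-146b lower the receptor adaptors Irak1 and Traf6 and so act as a brake. miR-21a, induced by STAT3 and AP-1 in many cell types, lowers Pdcd4. miR-150 is a miRNA of mature lymphocytes that lowers Myb, and miR-223 is a miRNA of granulocytes and other myeloid cells that lowers Nlrp3 and Mef2c.

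The RefSeq table for GRCm38.p6 held 11 mature sequences for these 6 genes. The sequences below are shown because they tell which members could repress the same targets and which reads could be mistaken for one another. They are written 5′ to 3′, and capitals mark the seed, bases 2 to 8. Mir150 is given by name, because RefSeq held only its strand miR-150-3p. The seed of miR-150-5p and the bases it shares with other genes were therefore not compared.
miR-21a-5p: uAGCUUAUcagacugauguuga
miR-146a-5p: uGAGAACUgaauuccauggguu
miR-146b-5p: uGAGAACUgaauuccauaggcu
miR-155-5p: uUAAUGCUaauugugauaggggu
miR-223-3p: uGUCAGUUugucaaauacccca

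The 11 mature strands carried 10 distinct seeds. Among these 11 strands, which leave out miR-150-5p, the 1 seed held by 2 members was GAGAACU, shared by miR-146a-5p and miR-146b-5p. These 2 strands were identical over the first 17 bases from the 5′ end and differed at 2 of 22 positions, G18A and U21C, where miR-146a-5p is given first and positions count from its 5′ end. Outside the 6 genes, the seed AGCUUAU of miR-21a-5p was also found in miR-21c, whose gene Mir21c had 0 counts in both libraries. Among the hairpins of the 2202 annotated miRNA genes, read on both strands, the longest stretch shared with another gene was 17 bases for miR-146a-5p, with Mir146b. It was 15 bases for miR-21a-5p, with Mir21c, and 12 bases for miR-223-3p. It was 9 bases for miR-155-5p. The Mir146 and Mir146b hairpins as a whole shared 21 bases, because the identity reaches upstream of the mature strand. Reads that map to several places lie outside the gene counts, so reads that end within the shared stretch could be lost to both genes, and the counts of Mir146 and Mir146b are uncertain.

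The 6 genes lay at separate loci. On mm10, Mir21a (ENSMUSG00000065455.1) lies on the minus strand of chromosome 11 from 86584067 to 86584158, inside an untranslated region of Vmp1 on the same strand. Mir146 (ENSMUSG00000065601.1) lies on the minus strand of chromosome 11 from 43374397 to 43374461, between genes, with Pttg1 as the nearest protein-coding gene at 45789 bp. Mir146b (ENSMUSG00000070127.2) lies on the plus strand of chromosome 19 from 46342762 to 46342870, in an intron of Mfsd13a. Mir155 (ENSMUSG00000065397.1) lies on the plus strand of chromosome 16 from 84714140 to 84714204, in an exon of its long non-coding host Mir155hg. Mir150 (ENSMUSG00000065495.1) lies on the plus strand of chromosome 7 from 45121757 to 45121821, between genes. Mir223 (ENSMUSG00000076066.1) lies on the plus strand of chromosome X from 96242817 to 96242926, in an exon of the non-coding gene F630028O10Rik. Mir150 was the member closest to another miRNA gene, Mir5121, at 5097 bp. None of the 6 hairpins overlaps another miRNA gene. Their counts on the opposite strand were 0 in both libraries, and their counts in the column that ignores strand equalled those on their own strand.

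The tables held 12978140 reads in replicate 1 and 15950006 in replicate 2, and the miRNA genes held 4226300 and 5162369 of them on their own strand. CPM below are counts per 1000000 of these gene counts. A read of this size stands for a mature miRNA, so CPM was not divided by hairpin length, and the 5p and 3p strands of a gene are summed. The label of brain tissue was met by miRNAs of neural cells. All 7 listed neuronal genes had counts, with a summed level of 71753 CPM in replicate 1 and 46807 CPM in replicate 2, and the oligodendrocyte list summed to 7100 and 5341 CPM.

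Together the 6 genes took 0.596% of the miRNA gene counts in replicate 1 and 0.283% in replicate 2, a mean of 0.440% ± 0.221 (SD, n = 2). Mir21a, Mir146, Mir150 and Mir155 were at or above 10 CPM in both libraries, as were 309 of the 2202 genes. Mir223 and Mir146b were below 10 CPM in both. In whole tissue, a lower number of cells of a type and less of a miRNA in each cell cannot be told apart, and the counts do not assign any of these miRNAs to microglia.

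Among the genes with a role in limiting or sustaining inflammatory signalling, Mir21a was the most variable of the abundant ones. Mir21a stood at 3357 CPM in replicate 1 (14188 counts, exact Poisson 95% interval 3302 to 3413) and 899 CPM in replicate 2 (4642 counts, 874 to 925). It ranked 51 of 2202 genes in replicate 1 and 93 in replicate 2, with a mean of 2128 CPM ± 1738 (SD, n = 2). These intervals cover counting error only, since PCR reads are not independent molecules.

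Mir146, the brake on receptor signalling, had 1335 CPM in replicate 1 (5644 counts) and 1074 CPM in replicate 2 (5544 counts), a mean of 1205 ± 185 (SD, n = 2). It ranked 83 in both libraries. Its seed partner Mir146b had 9 counts in replicate 1, or 2.13 CPM with an interval of 0.974 to 4.04. In replicate 2 it had 0 counts, with an interval up to 0.715 CPM and the floor of 3 counts at 0.581 CPM. The counts are per gene, so no value is given for the strands that carry the shared seed.

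Mir155, the inducible gene that sustains the response, had 173 CPM in replicate 1 (731 counts, interval 161 to 186) and 181 CPM in replicate 2 (933 counts, interval 169 to 193). The intervals overlapped, the mean was 177 ± 5.49 CPM (SD, n = 2), and the ranks were 173 and 167. Of the 6 genes it had the smallest spread between libraries, with an SD of 3.11% of the mean, against 15.4% for Mir146, 32.6% for Mir150, 59.3% for Mir223, 81.7% for Mir21a and 141% for Mir146b.

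Mir150 and Mir223, the members known from blood cells, were far apart in level. The counts from whole cortex do not assign either to blood cells. Mir150 had 1084 CPM in replicate 1 (4580 counts, rank 95) and 677 CPM in replicate 2 (3497 counts, rank 107), a mean of 881 ± 287 (SD, n = 2). Mir223 had 7.57 CPM in replicate 1 (32 counts, interval 5.18 to 10.7, rank 347) and 3.10 CPM in replicate 2 (16 counts, interval 1.77 to 5.03, rank 403).

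**Figure D1:**
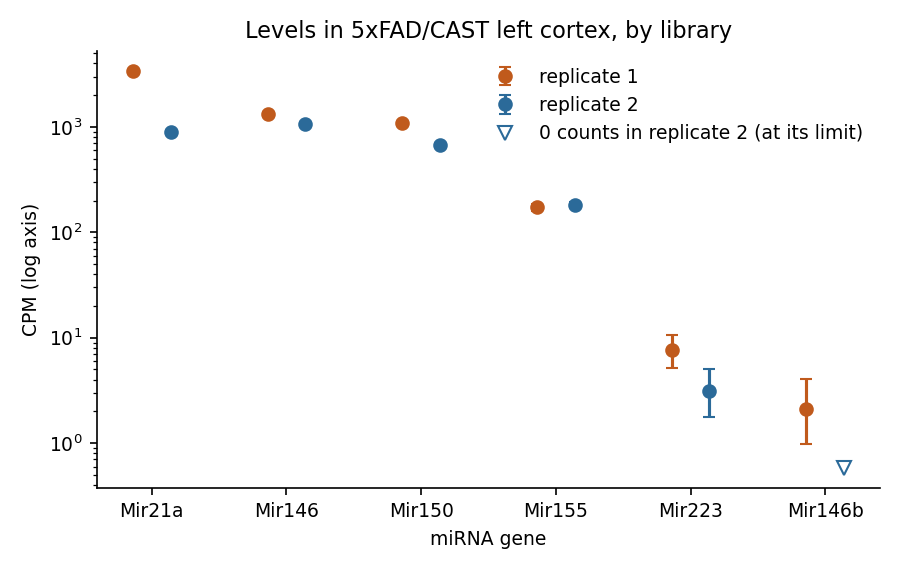
CPM on a log axis for each of the 6 genes in replicate 1 and replicate 2, with exact Poisson 95% intervals for counting error. The 4 most abundant genes lie between 173 and 3357 CPM in both libraries. Mir146b has 0 counts in replicate 2, drawn as an open triangle at the floor of 3 counts, 0.581 CPM.

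The order of the members was the same in both libraries apart from the top. In replicate 1 it ran Mir21a, Mir146, Mir150, Mir155, Mir223 and Mir146b. In replicate 2 Mir146 stood above Mir21a. The ratio of Mir21a to Mir146 counts was 2.51 in replicate 1 and 0.837 in replicate 2, so these neighbours are not separated beyond their spread, and the range of Mir21a also overlapped that of Mir150. The ranges of Mir146 and Mir150 over the libraries also overlapped (1074 to 1335 CPM and 677 to 1084 CPM), although Mir146 was the higher in each, by 1.23 times in replicate 1 and 1.59 times in replicate 2. Mir150 exceeded Mir155 by 6.27 times in replicate 1 and 3.75 times in replicate 2. The ranges of Mir155, Mir223 and Mir146b over the libraries did not overlap one another. The counting intervals of Mir223 in replicate 2 (1.77 to 5.03 CPM) and Mir146b in replicate 1 (0.974 to 4.04 CPM) did overlap.

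Mir21a made up 56.3% of the counts of the 6 genes in replicate 1 and 31.7% in replicate 2. Mir146 made up 22.4% and 37.9%, Mir150 18.2% and 23.9%, and Mir155 2.90% and 6.38%. Without Mir21a, the other 5 genes summed to 2602 CPM in replicate 1 and 1935 CPM in replicate 2.

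**Figure D2:**
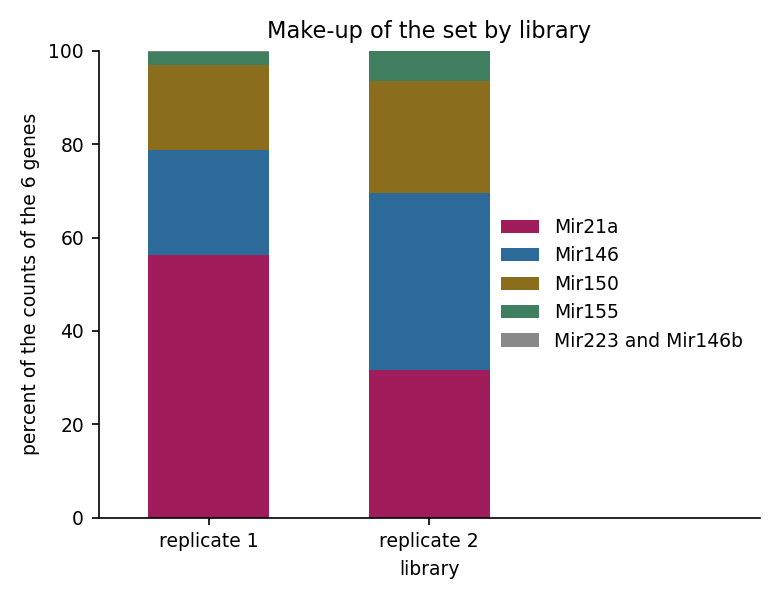
Percent of the counts of the 6 genes taken by each gene, in replicate 1 and in replicate 2. Mir21a takes 56.3% in replicate 1 and 31.7% in replicate 2, and the top band of Mir223 and Mir146b is too thin to see in either.

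With 1 group, the comparison left is of the libraries themselves. A two-sided exact binomial test against TMM-scaled library sizes (totals corrected for a few dominant genes) was run on the 546 genes that had at least 10 counts over both libraries, with Benjamini-Hochberg adjustment. That test covers counting error only, and 58.8% of the tested genes were called, with replicate 1 higher for 34.2% and replicate 2 higher for 24.5%. Among genes with 1000 counts or more in the sum, 87.4% were called. Of the 5 tested members 4 were called, all higher in replicate 1. Of the 4 members with 1000 counts or more, 3 were called, and 4 genes are too few to tell this from the 87.4% of all genes at this depth. Mir146b was not tested, with 9 counts in the sum.

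Mir21a was 3.81-fold higher in replicate 1 (exact 95% interval 3.69 to 3.94, log2 ratio 1.93). Its adjusted p lay at or below 1e-300, the smallest value written, by the exact binomial test. Mir223 was 2.46-fold higher in replicate 1 (1.33 to 4.87, adjusted p = 0.00463 by the exact binomial test), on 48 counts in all. Mir150 was 1.63-fold higher in replicate 1 (1.56 to 1.71) and Mir146 1.27-fold (1.22 to 1.32), each past the threshold. For Mir146b, 9 counts in replicate 1 against the floor of 3 counts in replicate 2 gave 3.74-fold, and the exact 95% interval, which also holds the counting error of the 9 counts, began at 2.46-fold. The Mir155 ratio of replicate 1 over replicate 2 was 0.978 with an interval of 0.886 to 1.08 (adjusted p = 0.741 by the exact binomial test), an interval that holds 1.

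The median log2 ratio was 0.71 over the 5 tested members and 0.07 over all 546 tested genes. When a biological coefficient of variation (BCV) of 0.1 was allowed for, in edgeR's exact test, 28.8% of all tested genes and 3 of the 5 members were called. Mir21a (adjusted p = 5.37e-18), Mir150 (0.00405) and Mir223 (0.0359) passed, and Mir146 did not (0.201).

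**Figure D3:**
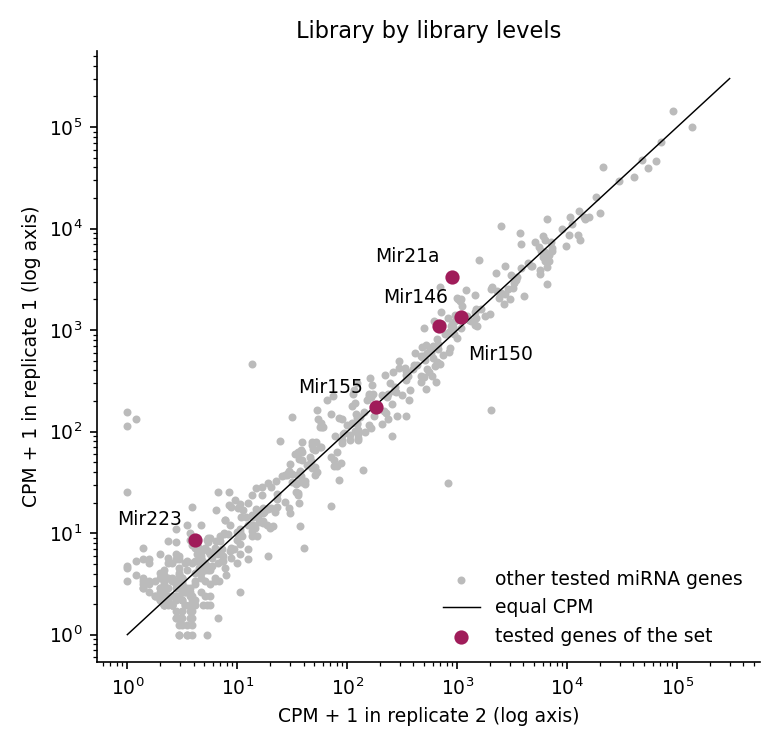
CPM + 1 of every tested miRNA gene, replicate 1 on the vertical and replicate 2 on the horizontal log axis, with the 5 tested members named and a line of equal CPM. Mir21a lies above the line at 3357 CPM in replicate 1 and 899 CPM in replicate 2, and Mir155 lies on it.

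The difference of Mir21a was large for a gene of its abundance. Of the 93 genes that averaged 1000 CPM or more, 4 differed by its 3.81-fold or more in either direction, Mir21a itself, Mir140, Mir22 and Mir185, and the median fold over these 93 genes was 1.28. Mir140 and Mir22 were higher in replicate 1 and Mir185 was higher in replicate 2. The last 3 genes were picked after their values were seen.

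Genes closest in level to each member were found as the smallest distance in log2(CPM + 1) over the 2 libraries, which says nothing of shared function. For Mir21a the nearest was Mir140, a chondrocyte-enriched miRNA gene, at 2656 CPM in replicate 1 and 693 CPM in replicate 2 (distance 0.505), followed by Mir27b and Mir128-2. For Mir146 they were Mir154, Mir484 and Mir409, at distances of 0.184 to 0.209. For Mir150 the nearest was Mir222, at 1145 CPM in replicate 1 and 728 CPM in replicate 2 (0.130), followed by Mir195a and Mir3102. Mir155 lay beside Mir488, at 180 and 186 CPM (0.0716), then Mir467e and Mir3547. Mir223 lay beside Mir6985, Mir205, an epithelial miRNA gene, and Mir7000, and Mir146b beside Mir7067, Mir7085 and Mir3544. Mir21a was the member with the most distant nearest gene.

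Other miRNA genes tied to Toll-like receptor and NF-kB responses went both ways between the libraries. Of 16 such genes, 14 were tested. Replicate 1 was the higher for 8 of them, replicate 2 for 4, and 2 did not pass, with a median log2 ratio of 0.18. Among the called genes, the largest ratios towards replicate 1 were those of Mir132, 1.96-fold, which in macrophages lowers acetylcholinesterase, Mir125a, 1.92-fold, and Mir125b-2, 1.76-fold. Mir301 was 2.51-fold, Mir99b 2.27-fold and Mir125b-1 1.18-fold higher in replicate 2. Reads that map to several places enter no gene count. Any reads shared by numbered copies, such as Mir125b-1 and Mir125b-2, or Mir138-1 and Mir138-2 below, are therefore missing from these ratios. Mir99b, Mirlet7e and Mir125a belong to 1 cluster on chromosome 17. Mirlet7e, at 29549 CPM in replicate 1 and 29866 CPM in replicate 2, passed in favour of replicate 1 with these library sizes and in favour of replicate 2 with total counts, DESeq2 size factors or TMM over all genes, which gave 7 and 5 for the list. Mir147, which is induced by Toll-like receptors and dampens the response in macrophages, had 7 counts in replicate 1 and 0 in replicate 2.

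The remaining genes of blood-cell lineages also went both ways. Mir142, expressed throughout blood lineages and in microglia, stood at 80.9 CPM in replicate 1 and 104 CPM in replicate 2 and was 1.26-fold higher in replicate 2 (adjusted p = 0.00199 by the exact binomial test). Mir342 had 4273 and 2729 CPM and was 1.60-fold higher in replicate 1. Mir181d was 1.35-fold higher in replicate 2. Mir511, which lies within the macrophage gene Mrc1, had 5 counts in replicate 1 and 4 in replicate 2, and Mir142b had 0 on its own strand in both.

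Erythroid miRNAs also differed between the libraries. The 5 listed genes summed to 89.7 CPM in replicate 1 and 890 CPM in replicate 2. Mir451a, the red-cell miRNA, was 26.6-fold higher in replicate 2 (127 and 4240 counts) and its neighbour Mir144 6.21-fold, while Mir486 (1.42-fold) and Mir3107 (5.92-fold), which lie opposite each other, were higher in replicate 1 and Mir451b was at 0 in both. Mir150 and Mir223, the members known from blood cells, were higher in replicate 1, as were Mir486 and Mir3107 and unlike Mir451a and Mir144. Mir486 had 153 counts in replicate 1 and 134 in replicate 2, and Mir3107 had 73 and 15. Any reads that map to both Mir486 and Mir3107 enter no gene count and are missing from their ratios. These 2 ratios may therefore not follow the amount of red cells. The part of blood in the differences of the members was not tested. Of the lists of other brain cells, the 3 astrocyte genes were all called higher in replicate 1 (summed level 36131 CPM in replicate 1 and 29906 CPM in replicate 2, median log2 ratio 0.34). Of the 7 neuronal genes, 5 were called higher in replicate 1 (3 with DESeq2 size factors, 4 with TMM over all genes), and Mir138-1 and Mir138-2 were called higher in replicate 2. Their median log2 ratio of 0.09 was close to the 0.07 of all tested genes, and the largest part of their summed difference was Mir132 (40577 CPM in replicate 1 and 21189 CPM in replicate 2), which is also on the Toll-like receptor list. Of the 3 endothelial and mural genes, Mir126a (7756 CPM in replicate 1 and 13122 CPM in replicate 2) and Mir143 were called higher in replicate 2 and Mir145a (235 and 169 CPM) in replicate 1, with a summed level of 13268 and 19327 CPM and a median log2 ratio of -0.16. The part of these cells in the differences of the members was not tested.

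**Figure D4:**
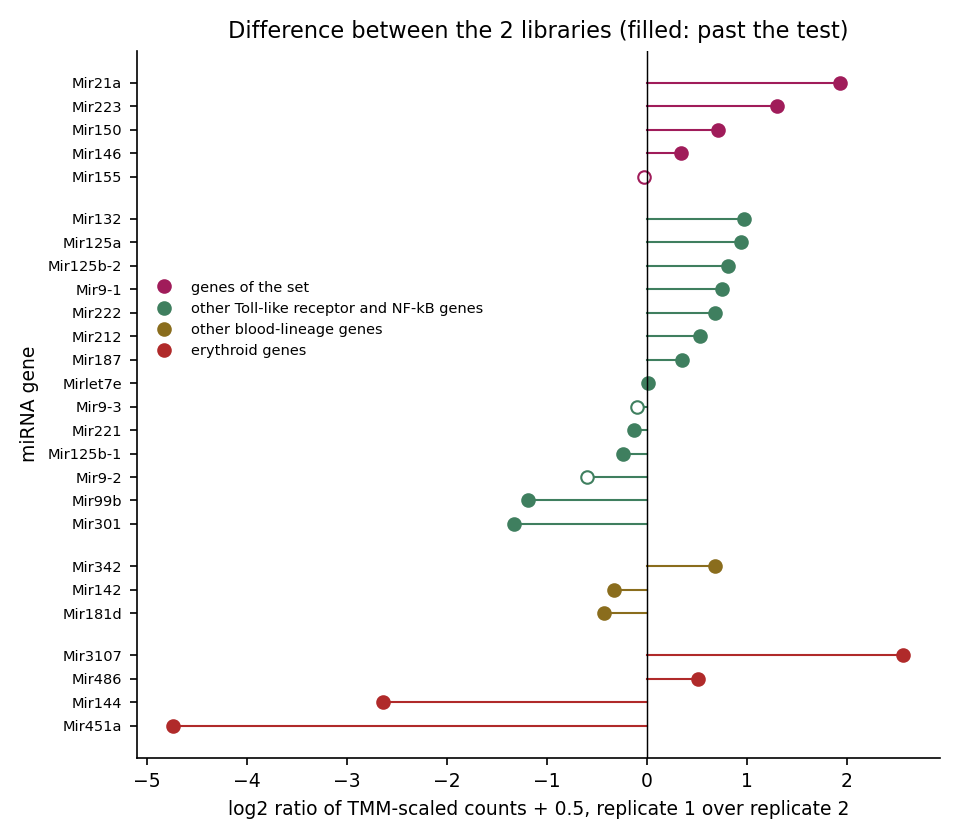
Log2 ratio of replicate 1 over replicate 2 for the tested members and for the tested genes of 3 further lists, with filled points past the exact binomial test. Mir21a is at 1.93 and Mir155 at -0.03 among the members, and the erythroid Mir451a is at -4.74.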

How the data were processed

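The authors deposited raw read counts for each library, 1 row for each miRNA gene of GENCODE M21 on mm10 per the records beside the files, with replicates kept apart. The sources used here do not give the aligner, the counter or the trimming. The 4 rows that name no gene, 67.4% of reads in replicate 1 and 67.6% in replicate 2, were left out of library sizes and tests. Gene IDs were matched to the M21 annotation (2202 of 2202). Counts on the strand of the gene gave CPM over plain totals. CAST-derived sequence that differs from the mm10 reference could map less well, which was not tested.

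Library ratios used TMM sizes computed over genes with at least 10 counts (edgeR 4.0.16), a choice made after sizes over all genes had been tried and their results seen, with 0.5 counts added to each library, and exact binomial tests (scipy 1.17.1) at an adjusted p threshold of 0.05. A quasi-likelihood fit has no residual degrees of freedom here. Tested on simulated data for replicate 1 over replicate 2, with 552 genes, 72.0% of 200 genes changed 2-fold were recovered, and 100.0% of the 83 with 1000 counts or more, at 1.13% of unchanged genes called. That rate covers counting error alone.

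The members and gene lists were chosen with earlier results of these data known. Genes named were the 6 members, the 3 tested genes nearest in level to each, and genes sharing a seed. Up to 3 each way of the Toll-like receptor list were also named, and all these choices were fixed in the design. Any other gene was picked with its values known. The alternatives tried were the unstranded column, other denominators, DESeq2 1.42.0 size factors or total counts, other filters and pseudocounts, edgeR's exact test at a BCV of 0.1 and leaving out each library.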

Additional observations from a re-analysis of the deposited data

Results flagged for a closer look

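Counts outside the main measurement lay above the limit of 3 counts at 3 listed genes that had none on their own strand. Mir142b had 342 opposite-strand counts in replicate 1 and 537 in replicate 2, equal to the own-strand counts of Mir142, which it overlaps on the other strand. Mir451b had 127 and 4240, equal to those of Mir451a. Mir219b had 14689 in replicate 1 and 15993 in replicate 2, equal to those of Mir219a-2. No member had opposite-strand counts. Reads mapping to several places, which enter no gene count, numbered 5244644 in replicate 1 and 6290303 in replicate 2.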

How the results depend on the processing

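Of the results recomputed, the calls and directions of Mir21a, Mir150 and Mir155 held under every alternative run, with Mir21a between 3.63-fold with DESeq2 size factors and 3.81-fold, and Mir155 between 0.931 and 0.978. Mir146 (1.27-fold) was no longer called by edgeR's exact test at a BCV of 0.1, Mir223 (2.46-fold) was not tested at 100 counts or more, and Mir146b (3.74-fold against the floor of 3 counts, exact interval from 2.46) was called once genes with 1 count were tested (adjusted p = 0.00219). That edgeR test called 157 genes in place of 321. With reads mapping to several places in the denominator, the share of the 6 genes was 0.197%, and the mean CPM of all 6 was lower, with Mir21a at 952, Mir146 at 540.0, Mir150 at 394, Mir155 at 79.3, Mir223 at 2.39 and Mir146b at 0.475. With all reads as denominator the share was 0.143%. The unstranded column gave Mir155 at 190 CPM, as its total is smaller. With 1 of the 2 libraries left out the share was 0.283% to 0.596%, which says nothing of stability. The scaling was changed after results were seen. TMM sizes were first computed over all 2202 genes, which called 313 genes and put Mir21a at 3.71-fold, Mir146 at 1.24-fold and Mir155 at 0.952. TMM over the tested genes, as in an earlier analysis of these data that called 321, then replaced it, and 4 members were called either way. No paired analysis was possible because there is 1 group. Depth limits Mir223 and Mir146b.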

Other observations

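Mir22, an abundant miRNA gene of many cell types, had 10479 CPM in replicate 1 and 2525 CPM in replicate 2, 4.24-fold higher in replicate 1. Mir140 was 3.92-fold higher in replicate 1. Mir185 had 160 CPM in replicate 1 and 2043 CPM in replicate 2, 12.5-fold higher in replicate 2. With Mir21a these were the 4 genes averaging 1000 CPM or more that differed by at least the fold of Mir21a, and they were picked after their values were seen.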
